A study of Homo sapiens with 14 samples.

Results

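The transcripts of 33 enzymes that make, recycle or balance nucleotides were followed in RS4;11 cells during exposure to dexamethasone. The members were named by pathway: de novo purine synthesis, de novo pyrimidine synthesis, deoxynucleotide synthesis and balance, salvage, and nucleotide kinases. Probe sets annotated with exactly 1 gene were taken, and 32 of the 33 members had at least 1, giving 58 probe sets out of 19070 with a single gene, or 32 genes out of 11964. ADSS2, which acts on the branch from IMP to AMP, had none and was not analysed here.

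RS4;11 is an established B-cell precursor acute lymphoblastic leukemia line with a rearranged KMT2A gene, so all groups come from 1 line. Dexamethasone is a synthetic glucocorticoid that activates the glucocorticoid receptor, a DNA-binding regulator of transcription. The arrays comprise 4 of untreated cells at 0 h, 5 of cells after 8 h and 5 of cells after 24 h in 10 nM dexamethasone, and all cells had been deprived of hormone beforehand in charcoal-dextran-treated serum. No untreated arrays were analysed at 8 h or 24 h, so time in culture and dexamethasone cannot be told apart.

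Cells build purines stepwise on a ribose phosphate, starting from the PRPP made by PRPS enzymes, and reach IMP, from which AMP and GMP are made. Pyrimidines are built as a ring first and then joined to PRPP, giving UMP and later CTP. Ribonucleotide reductase turns ribonucleotides into deoxynucleotides for DNA, thymidylate synthase makes the thymine nucleotide, and salvage enzymes recover free bases and nucleosides. Dividing lymphoid cells depend heavily on these pathways, and several of the enzymes are targets of drugs used in acute lymphoblastic leukemia.

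All levels are log2 RMA expression values. Where a gene had several probe sets their mean was taken, and a difference is one of group means on that scale. A gene passed when its adjusted p in limma was below 0.05, with the Benjamini-Hochberg adjustment made over all 11964 genes. The median of an array lay between 6.03 and 6.11. B-cell precursor markers averaged 8.91 to 9.55 per array, with VPREB1 at 12.88, PAX5 at 8.73, BLNK at 7.07 and DNTT at 6.29 in untreated cells. Of the 10 measured markers on that list 4 were lower and 4 higher at 24 h, where 20.9% of all genes were lower and 19.5% higher. The largest differences were those of BLNK, an adaptor of B-cell signalling (-2.01 at 8 h and -2.21 at 24 h), and DNTT, the terminal transferase (-1.32 and -1.80). The largest rise at 24 h was that of CD79B (0.98, limma adjusted p = 3.27e-07), which differed by -0.07 at 8 h. Against this, the T and NK cell list averaged 4.93 to 5.18, the monocyte and granulocyte list 3.95 to 4.18 and the erythroid and platelet list 4.91 to 5.26, with CD3D at 4.54, CD14 at 3.96 and HBB at 5.29. On the T and NK cell list LCK was at 8.82 and NKG7 at 8.62 in untreated cells. On the erythroid and platelet list GP9 was higher by 0.82 at 8 h and by 1.33 at 24 h. The 3′ minus 5′ log2 difference of the ACTB control probe sets ran from 1.23 to 2.69 in untreated cells, 1.06 to 2.75 at 8 h and 1.34 to 2.28 at 24 h. The arrays come from 5 runs on 4 days, with runs 1 and 2 on day 1, and run 5 holds no untreated array. This ACTB value split by day, from 1.06 to 1.55 on the 6 arrays of day 1 and from 2.03 to 2.75 on all others, and that of GAPDH ran from 0.45 to 0.61 and from 0.79 to 1.02. Nothing in the labels says that replicates came from separate cultures, so the p-values rest on a spread among arrays that may be technical in part or in whole. In bulk RNA, fewer cells of a type and less RNA per cell cannot be told apart.

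Most of these genes were lower at 24 h, and part of them were already lower at 8 h. No test compared one pathway with another. At 8 h, 17 of the 32 measured members had fallen and 1 had risen, where 11% of all genes tested were lower and 8.68% were higher, 19.7% in all. At 24 h, 26 had fallen and 1 had risen, against 20.9% of all genes lower and 19.5% higher, 40.5% in all. The median log2 difference of the members was -0.29 at 8 h and -0.86 at 24 h, and that of all genes was -0.02 at both times. At 24 h all 5 arrays lay below all 4 untreated arrays for 26 members, where 18.1% of all genes showed this, and above them for 1, against 17.2%. At 8 h all arrays lay below the untreated ones for 15 members, against 10.4% of all genes, and above them for 0, against 7.86%. The comparisons at 8 h and 24 h share the untreated arrays.

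**Figure D1:**
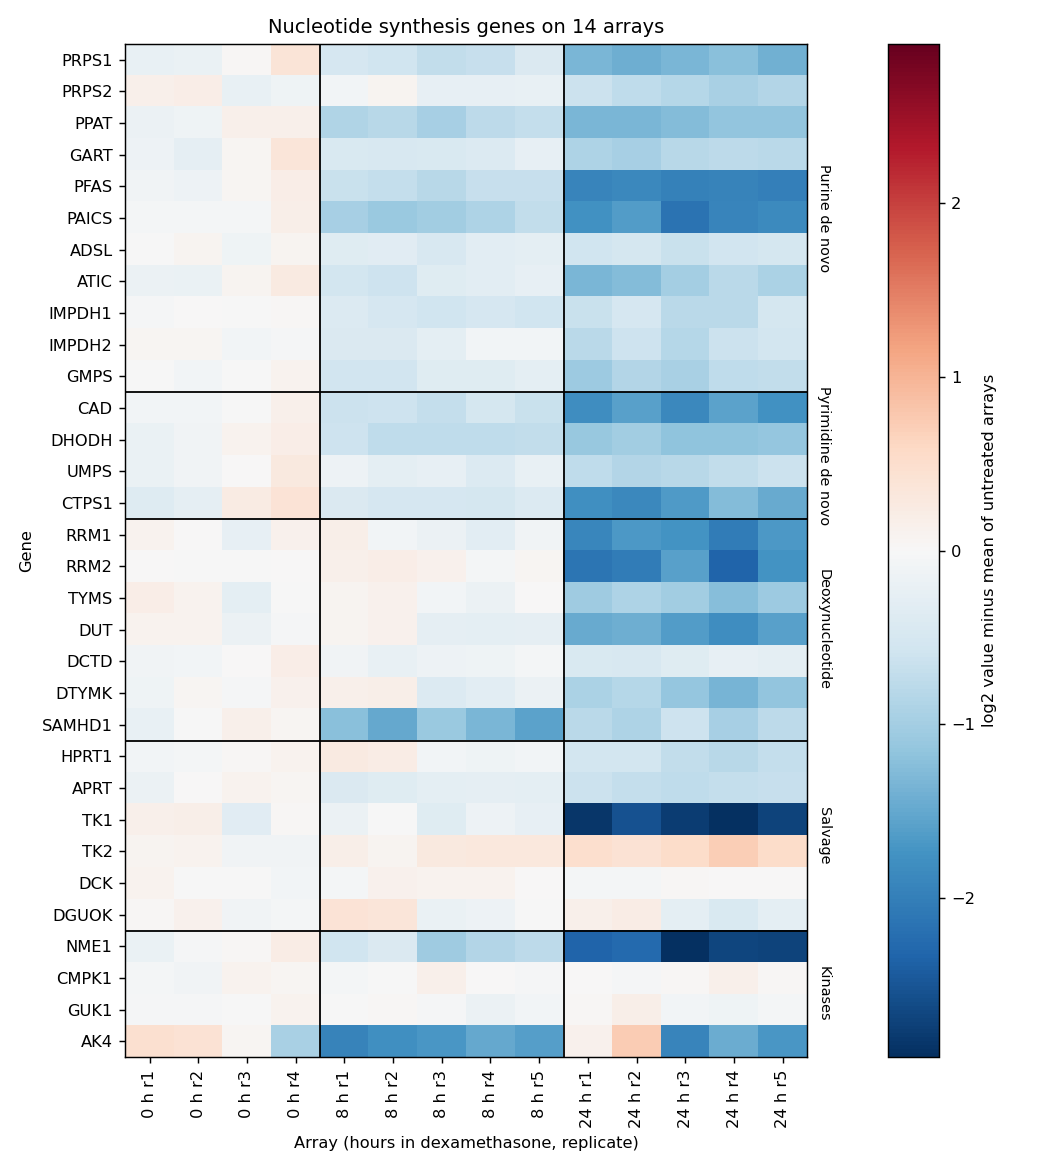
Each cell gives a gene's log2 value on 1 array minus the mean of the 4 untreated arrays (blue lower, red higher), with the 32 genes in rows by pathway and the 14 arrays in columns by time. The purine and pyrimidine rows are already blue at 8 h, most deoxynucleotide rows turn blue at 24 h, and TK2 is red at 24 h.

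The starts of 5 genes that are described further on are shown here in 4 lines, PPAT, PAICS and ATIC as genes that were lower at both times and RRM2 and TK1 as genes that passed at 24 h and not at 8 h. The sequences are from RefSeq on GRCh38.p14 and lie within promoter windows of 250 bases before to 50 bases after an annotated start. PPAT and PAICS are neighbours that are read in opposite directions from starts 136 bases apart on chromosome 4, and the whole stretch between them, chr4:56435616-56435751, is given on the plus strand. The other lines give the 150 bases before an annotated start of ATIC (chr2:215311909-215312058, plus strand), RRM2 (chr2:10122589-10122738, plus strand) and TK1 (chr17:78187053-78187202, minus strand). Capitals mark the motifs, which were searched on both strands and do not overlap in these lines. They are the E-box, spelled CACGTG, and the CCAAT box, which reads ATTGG on the opposite strand. The E2F core was taken as any of 4 spellings, namely TTCCCGC and also TTGGCGC and further TTCGCGC and lastly TTGCCGC, and the capitals before the start of TK1 are the first of these read on the opposite strand.
PPAT to PAICS: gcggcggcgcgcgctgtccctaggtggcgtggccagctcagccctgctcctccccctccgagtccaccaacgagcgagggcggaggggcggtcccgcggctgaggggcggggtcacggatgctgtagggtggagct
ATIC: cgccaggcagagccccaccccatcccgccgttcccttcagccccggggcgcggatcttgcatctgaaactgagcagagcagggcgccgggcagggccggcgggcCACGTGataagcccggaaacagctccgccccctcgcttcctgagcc
RRM2: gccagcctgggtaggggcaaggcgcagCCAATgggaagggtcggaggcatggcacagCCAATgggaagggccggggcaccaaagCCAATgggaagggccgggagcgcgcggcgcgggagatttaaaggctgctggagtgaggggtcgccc
TK1: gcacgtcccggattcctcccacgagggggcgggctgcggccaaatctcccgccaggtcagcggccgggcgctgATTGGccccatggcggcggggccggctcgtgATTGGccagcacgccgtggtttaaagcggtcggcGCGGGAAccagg

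In these windows, ATIC held an E-box 46 bases before its start, and PPAT and PAICS share an E-box that lies just past the PAICS start, 182 bases before that of PPAT and outside the stretch printed. RRM2 held CCAAT at 123, 93 and 66 bases before the start shown, and TK1 held it at 77 and 46 bases with an E2F core at 12 bases. RRM2 and TK1 each have another annotated start, and the window with the most CCAAT matches was the one shown. In the window of its other start RRM2 held CCAAT at 249 and an E2F core at 192 bases before that start. That of TK1 held none of these motifs. ATIC was paired with the E-box, and RRM2 and TK1 with CCAAT, when the lines were picked. The lines therefore do not compare genes by the time of their fall. GART, lower at both times, held CCAAT at 123, 99 and 53 bases before an annotated start. PRPS1, also lower at both times, held an E2F core at 5 and CCAAT at 156 bases. PFAS and GMPS, lower at both times too, held none of these motifs. Of the 30 members with a window, an E-box was found in 3 of 9 purine genes and in 0 of 7 deoxynucleotide genes, where 7.26% of all 35116 windows held one. It was also found in 1 of 4 pyrimidine genes, 1 of 6 salvage genes and 2 of 4 kinase genes. An E2F core was found in 4 of 9 purine genes, 0 of 4 pyrimidine genes, 4 of 7 deoxynucleotide genes, 2 of 6 salvage genes and 2 of 4 kinase genes, against 13% of all windows. CCAAT was found in 2 of 9, 2 of 4, 4 of 7, 2 of 6 and 1 of 4 of these groups in the same order, against 34.6%. DCK, which did not pass at any time, held 3 E2F cores and an E-box. Some genes have several windows, 46 in all for the members, which raises the chance of a match per gene above that per window. Of these 46 windows, 17.4% held an E-box, 26.1% an E2F core and 30.4% CCAAT. The E-box that PPAT and PAICS share is counted for both. A match is a description of the letters in a window and not of a bound site.

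The transcripts of de novo purine synthesis were lower at both times. Of the 11 measured genes, 9 had fallen at 8 h and 11 at 24 h, and 10 had fallen from 8 h to 24 h, a comparison in which 13.7% of all genes were lower. The median log2 difference was -0.42 at 8 h and -0.87 at 24 h.

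PPAT, which commits PRPP to purine synthesis, was at 8.97, 9.0, 9.28 and 9.29 in untreated cells, at 8.27, 8.32, 8.18, 8.37 and 8.44 at 8 h, and at 7.80, 7.80, 7.87, 7.98 and 7.98 at 24 h. The 3 groups did not overlap. PPAT differed from untreated cells by -0.82 at 8 h (SE 0.08, limma adjusted p = 2.1e-06) and by -1.25 at 24 h (SE 0.08, limma adjusted p = 3.1e-09), so 65.6% of its difference at 24 h was present at 8 h.

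PAICS, the gene on the other side of the shared start region, encodes the enzyme of the carboxylation step and the step after it. Its untreated values were 9.18, 9.17, 9.19 and 9.42, its values at 8 h 8.26, 8.15, 8.23, 8.33 and 8.53, and its values at 24 h 7.47, 7.61, 7.09, 7.31 and 7.37. The groups did not overlap here either. PAICS was lower by 1.92-fold at 8 h (log2 difference -0.94, SE 0.10, limma adjusted p = 4.2e-06) and by 3.65-fold at 24 h (log2 difference -1.87, SE 0.10, limma adjusted p = 3.0e-10). By the mean over probe sets, its change before 8 h and its change from 8 h to 24 h were nearly equal. The difference between them was 0.01, with a 95% interval from -0.35 to 0.36. The single probe sets went different ways, with -0.33 on 201013_s_at, -0.26 on 201014_s_at and 0.61 on the dim 214664_at, and none of these passed.

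PFAS, which makes FGAM in the middle of the pathway, showed the largest log2 difference of the purine genes at 24 h by the mean over probe sets. On the single probe sets 201013_s_at and 201014_s_at, PAICS differed by more, -2.05 and -2.24. PFAS was at 10.13, 10.08, 10.29 and 10.43 in untreated cells, at 9.58, 9.53, 9.42, 9.56 and 9.55 at 8 h, and at 8.31, 8.35, 8.27, 8.29 and 8.25 at 24 h. All 24 h arrays stood well below the 8 h arrays, which stood below the untreated ones. PFAS fell by 0.70 at 8 h (SE 0.07, limma adjusted p = 1.8e-06), and at 24 h it was 3.84-fold lower (log2 difference -1.94, SE 0.07, limma adjusted p = 2.2e-12). Of 11964 genes, 71 showed a larger fall at 24 h.

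By the mean over probe sets, ATIC, GART, ADSL and GMPS differed by less than PPAT, PAICS and PFAS at both times. ATIC, which closes the purine ring to give IMP, went from a mean of 11.37 ± 0.21 (SD, n = 4) in untreated cells to 10.96 ± 0.16 (SD, n = 5) at 8 h and 10.32 ± 0.23 (SD, n = 5) at 24 h. Its difference of -0.41 at 8 h (limma adjusted p = 0.0262) did not pass without untreated replicate 3 or 4 or 8 h replicate 1 or 2, with adjusted p between 0.0566 and 0.0948, while its difference of -1.06 at 24 h passed without any 1 array. GART, an enzyme of 3 steps, differed by -0.40 at 8 h and by -0.85 at 24 h. ADSL, the adenylosuccinate lyase, differed by -0.35 and -0.57, and GMPS, which makes GMP, by -0.42 and -0.87 at these times. All 6 of these differences passed. Within day 1 the 8 h difference of GART was -0.24 and did not pass (limma adjusted p = 0.0528).

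The genes that occur in pairs are given side by side, since the difference within a pair was not tested. PRPS1, a PRPP synthetase, differed from untreated cells by -0.58 at 8 h and by -1.34 at 24 h. PRPS2, its relative, differed by -0.14 at 8 h (limma adjusted p = 0.375), with untreated arrays from 10.07 to 10.47 and 8 h arrays from 10.03 to 10.35, and by -0.80 at 24 h. IMPDH1, an isoform of the rate-limiting enzyme of GMP synthesis, differed by -0.50 at 8 h and by -0.64 at 24 h, and its change from 8 h to 24 h was -0.14 (limma adjusted p = 0.157). IMPDH2, the isoform known from proliferating cells, differed by -0.25 at 8 h (limma adjusted p = 0.0522) and by -0.68 at 24 h. At 8 h its untreated arrays lay between 12.37 and 12.52 and its 8 h arrays between 12.02 and 12.38, so the groups touched. With the run as a block the 8 h difference of IMPDH2 was -0.28 with a limma adjusted p of 0.0169, and without 8 h replicate 4 or 5 it was -0.30 with a limma adjusted p of 0.0278 or 0.0265.

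The transcripts of de novo pyrimidine synthesis fell as a whole. All 4 genes passed at 8 h, at 24 h and from 8 h to 24 h, with a median log2 difference of -0.54 at 8 h and -1.37 at 24 h.

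CAD carries the first steps of pyrimidine ring synthesis on 1 protein. It stood at 8.64, 8.64, 8.71 and 8.85 in untreated cells, at 8.09, 8.11, 8.00, 8.20 and 8.07 at 8 h, and at 6.90, 7.13, 6.84, 7.14 and 6.95 at 24 h. The groups were apart by more than the spread of any of them. CAD was 1.53-fold lower at 8 h (log2 difference -0.62, SE 0.07, limma adjusted p = 1.7e-05) and 3.29-fold lower at 24 h (log2 difference -1.72, SE 0.07, limma adjusted p = 2.3e-11).

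DHODH, the mitochondrial enzyme that makes orotate, was at 6.05, 6.15, 6.36 and 6.44, then at 5.66, 5.50, 5.52, 5.52 and 5.53 at 8 h, and at 5.14, 5.23, 5.07, 5.08 and 5.13 at 24 h. Its log2 differences were -0.70 at 8 h and -1.12 at 24 h. Its change from 8 h to 24 h less its change before 8 h was 0.29 and did not pass (limma adjusted p = 0.188). CTPS1, which makes CTP from UTP, was at 9.58, 9.68, 10.19 and 10.35 in untreated cells, at 9.52, 9.46, 9.46, 9.43 and 9.56 at 8 h, and at 8.17, 8.07, 8.30, 8.68 and 8.47 at 24 h.

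The untreated values of CTPS1 from day 1 were the lower pair and lay just above the 8 h values. Its difference of -0.46 at 8 h (limma adjusted p = 0.0349) did not pass without untreated replicate 3 or 4 or without any of the 8 h arrays in turn, with adjusted p from 0.0505 to 0.126, and within day 1 it was -0.14. At 24 h CTPS1 was 3.06-fold lower (log2 difference -1.61, SE 0.15, limma adjusted p = 1.6e-07). UMPS, which makes UMP from orotate, differed by -0.26 at 8 h (limma adjusted p = 0.0486) and by -0.75 at 24 h. At 8 h its untreated arrays lay between 7.55 and 8.03 and its 8 h arrays between 7.34 and 7.60, and the call was lost without untreated replicate 3 or 4, without 8 h replicate 2, 3, 4 or 5, or without any of the 24 h arrays, with adjusted p from 0.0509 to 0.166. Within day 1 the 8 h difference of UMPS was -0.07. In a fit over all single-gene probe sets, 215165_x_at and 202706_s_at of UMPS differed by -0.33 and -0.31 at 8 h (limma adjusted p = 0.00144 and 0.0118). The dim 202707_at, at 4.90 in untreated cells, differed by -0.13 and did not pass.

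**Figure D2:**
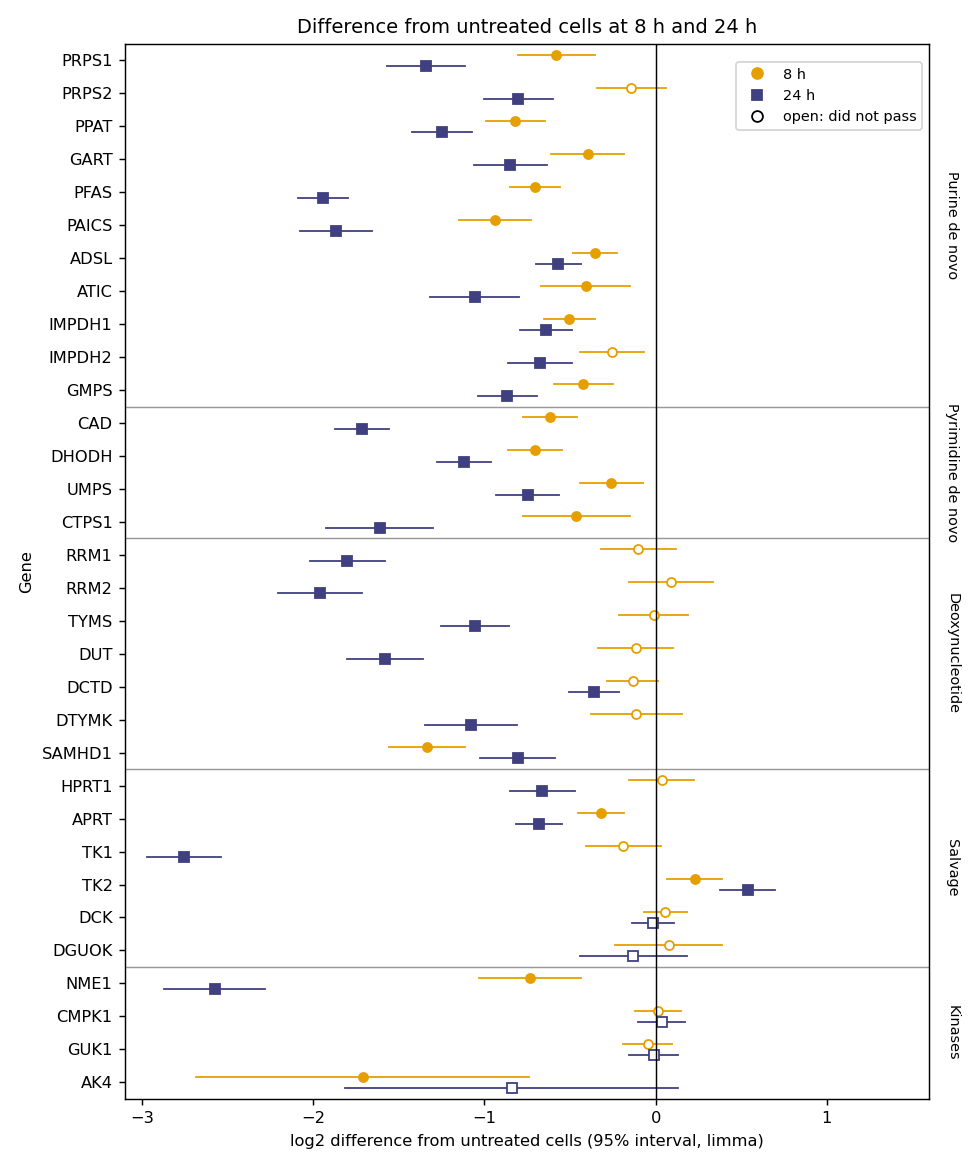
Points give the log2 difference of each gene from untreated cells at 8 h (orange circles) and 24 h (dark squares), lines the 95% limma intervals, and open points did not pass. All purine and pyrimidine genes lie left of 0 at both times, while most deoxynucleotide genes sit near 0 at 8 h and between -0.36 and -1.96 at 24 h.

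Of the 7 deoxynucleotide genes, 1 had fallen at 8 h, namely SAMHD1, and 7 had fallen at 24 h, with medians of -0.11 and -1.08. To ask whether the change after 8 h differed from the change before it, the difference of the steps was tested for every gene, as 24 h minus 8 h less 8 h minus untreated. Over all genes 5.13% passed with a negative and 5.07% with a positive difference. Of the 32 members, 11 passed with a negative difference, a steeper fall in the later step, and 5 of these 11 are deoxynucleotide genes: RRM1, RRM2, TYMS, DUT and DTYMK. The others were TK1, HPRT1, NME1, PFAS (-0.53, limma adjusted p = 0.00592), CAD and PRPS2. Within days 2 to 4 PFAS did not pass (-0.39, limma adjusted p = 0.0681). CAD (-0.49) did not pass without 8 h replicate 4, with an adjusted p of 0.0571, within day 1 (-0.55, 0.0515) or within days 2 to 4 (-0.42, 0.145). PRPS2 (-0.52, limma adjusted p = 0.0499) did not pass without untreated replicate 3 or 4, any of the 8 h arrays or 24 h replicate 2, 3, 4 or 5, with adjusted p from 0.0551 to 0.147. SAMHD1 and AK4 were the 2 members with a positive difference that passed. With the run as a block 12 members passed with a negative and 4 with a positive difference, and the 3 gained were CTPS1 (-0.65, limma adjusted p = 0.0396), PPAT (0.41, limma adjusted p = 0.0184) and IMPDH1 (0.35, limma adjusted p = 0.0472). The later step lasted longer than the earlier one, so a steady fall would also give a negative value.

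RRM2, the regulated small subunit of ribonucleotide reductase, was at 11.94, 11.93, 11.94 and 11.95 in untreated cells and at 12.09, 12.12, 12.05, 11.89 and 11.98 at 8 h. At 24 h its values were 9.81, 9.90, 10.36, 9.61 and 10.20. The 8 h arrays lay on both sides of the untreated ones, and every 24 h array was below both groups by a wide gap. RRM2 differed by 0.09 at 8 h (95% interval -0.16 to 0.34, limma adjusted p = 0.701), and at 24 h it was 3.89-fold lower (log2 difference -1.96, SE 0.12, limma adjusted p = 1.1e-09).

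RRM1, the large subunit, was at 10.15, 10.08, 9.82 and 10.18, then at 10.22, 9.97, 9.88, 9.76 and 9.95 at 8 h, and at 8.15, 8.39, 8.32, 8.02 and 8.39 at 24 h. The untreated and 8 h arrays overlapped and the 24 h arrays lay apart. Its difference was -0.10 at 8 h (95% interval -0.32 to 0.12) and -1.80 at 24 h, a 3.49-fold lower level (limma adjusted p = 7.1e-10). The difference of the steps was -2.14 for RRM2 (SE 0.19, limma adjusted p = 2.8e-06) and -1.60 for RRM1 (SE 0.17, limma adjusted p = 1.5e-05).

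TYMS, which makes the thymine nucleotide from dUMP, was at 9.15, 9.06, 8.68 and 8.95 in untreated cells, at 9.04, 9.08, 8.88, 8.78 and 8.97 at 8 h, and at 7.92, 8.05, 7.95, 7.71 and 7.89 at 24 h. Its difference of -0.01 at 8 h changed sign with the settings, and that at 24 h was -1.06 (SE 0.09, limma adjusted p = 1.3e-07). DUT, which breaks down dUTP and so supplies dUMP, differed by -0.12 at 8 h and by -1.58 at 24 h, where its arrays ran from 10.17 to 10.56 against 11.82 to 12.09 in untreated cells.

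DTYMK, the kinase that phosphorylates the product of TYMS, differed by -0.11 at 8 h and by -1.08 at 24 h. At 8 h its day 1 arrays, at 9.0 and 9.03, were above those of the other days, at 8.46, 8.54 and 8.68. Within days 2 to 4 its 8 h difference was -0.33 and passed (limma adjusted p = 0.0327), and within day 1 it was 0.20 (limma adjusted p = 0.141). The difference of the steps of DTYMK, -0.86 (limma adjusted p = 0.0144), did not pass without 8 h replicate 1, at -0.73 with an adjusted p of 0.0513. DCTD, a deaminase that turns dCMP into dUMP, differed least at 24 h, by -0.36 (limma adjusted p = 0.00051), and its steps did not differ with a passing p.

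SAMHD1 degrades deoxynucleoside triphosphates and so acts against the enzymes above. It was at 7.63, 7.83, 8.00 and 7.90 in untreated cells, at 6.63, 6.34, 6.75, 6.51 and 6.28 at 8 h, and at 7.05, 6.94, 7.24, 6.87 and 7.07 at 24 h. The 24 h arrays lay between the other groups, with no overlap, and in all 5 runs the 24 h array was above its 8 h array. SAMHD1 was 2.52-fold lower at 8 h (log2 difference -1.34, SE 0.10, limma adjusted p = 1.2e-07), the 21st largest fall among all genes. From 8 h to 24 h it rose by 0.53 (SE 0.10, limma adjusted p = 0.00056), where 14.6% of all genes rose, and at 24 h it was still lower than in untreated cells by 0.80.

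**Figure D3:**
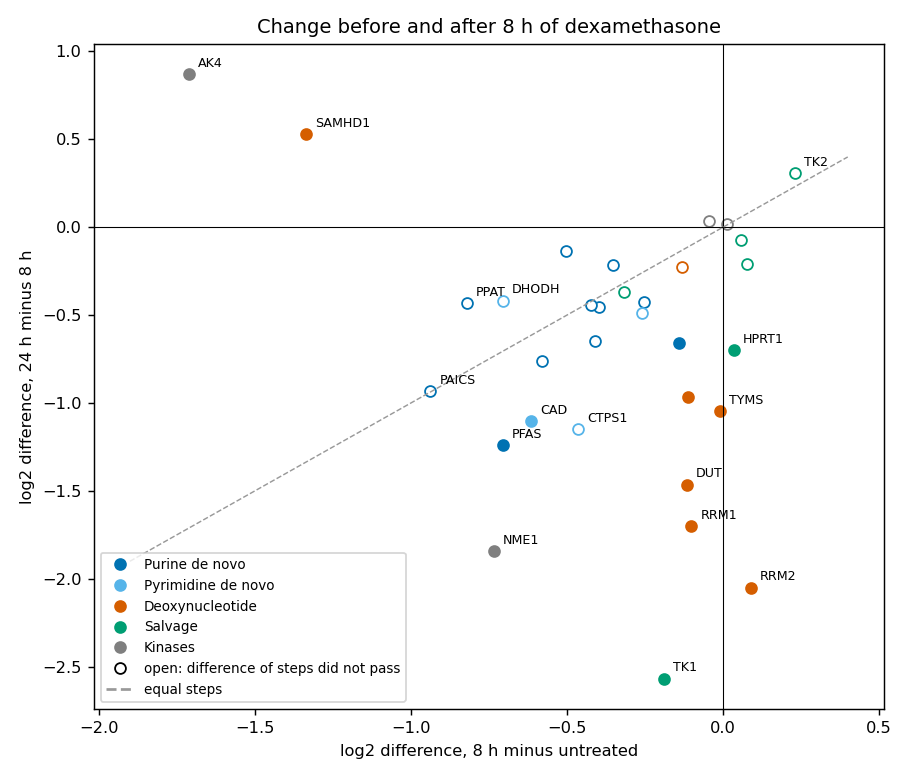
Each point is a gene, with the log2 difference of 8 h minus untreated on the x axis and of 24 h minus 8 h on the y axis, which share the 8 h arrays, and filled points passed the test of the difference between the steps. RRM1, RRM2, TYMS, DUT and TK1 sit close to 0 on the x axis and between -1.04 and -2.57 on the y axis, the purine genes sit on both sides of the dashed line of equal steps, and SAMHD1 and AK4 stand alone at the upper left.

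Salvage enzymes did not move as a group. Of 6 genes, APRT had fallen and TK2 had risen at 8 h, and HPRT1, APRT and TK1 had fallen and TK2 had risen at 24 h. DCK and DGUOK did not pass in any comparison in the fit over all arrays without a block.

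TK1, the cytosolic thymidine kinase known to peak in S phase, had the largest log2 difference of all members at 24 h. It was at 9.83, 9.85, 9.35 and 9.71 in untreated cells, at 9.51, 9.67, 9.34, 9.53 and 9.43 at 8 h, and at 6.84, 7.14, 6.92, 6.77 and 6.98 at 24 h. The first 2 groups overlapped, and the 24 h arrays lay far below both. TK1 was 6.75-fold lower at 24 h (log2 difference -2.75, SE 0.10, limma adjusted p = 3.8e-12), a fall exceeded by 17 of the 11964 genes. At 8 h its difference was -0.19 (limma adjusted p = 0.25), which became -0.30 (limma adjusted p = 0.03) without untreated replicate 3, and the difference of its steps was -2.38 (SE 0.17, limma adjusted p = 2.2e-07).

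TK2, the mitochondrial thymidine kinase, was the 1 member that rose. It was at 6.33, 6.35, 6.13 and 6.14 in untreated cells, at 6.40, 6.32, 6.53, 6.55 and 6.54 at 8 h, and at 6.72, 6.66, 6.78, 6.95 and 6.78 at 24 h. The 24 h arrays were above all others, while at 8 h the day 1 arrays differed from the untreated arrays of their runs by 0.08 and -0.03 and overlapped that group. TK2 was 1.45-fold higher at 24 h (log2 difference 0.54, SE 0.08, limma adjusted p = 2.0e-05). The 8 h difference of 0.23 (limma adjusted p = 0.0419) fell to 0.20 with the run as a block (limma adjusted p = 0.0637), was 0.02 within day 1, and did not pass without untreated replicate 3 or 4, 8 h replicate 3, 4 or 5, or 24 h replicate 1, 3 or 5, with adjusted p from 0.0506 to 0.122.

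Among the base salvage enzymes, HPRT1, which recovers hypoxanthine and guanine, was at 11.86, 11.87, 11.97 and 12.04, at 12.19, 12.16, 11.85, 11.82 and 11.85 at 8 h, and at 11.39, 11.40, 11.22, 11.13 and 11.23 at 24 h. At 8 h the arrays of runs 1 and 2 were above and those of runs 3 and 4 below the untreated array of the same run. Within day 1 the 8 h difference of HPRT1 was 0.31 and passed (limma adjusted p = 0.0139), and within days 2 to 4 it was -0.17 (limma adjusted p = 0.0868). HPRT1 fell by 0.66 at 24 h (SE 0.09, limma adjusted p = 1.4e-05). APRT, which recovers adenine, differed by -0.32 at 8 h and by -0.68 at 24 h, and both passed, though not the 8 h difference within day 1 (-0.31, limma adjusted p = 0.0508).

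DCK phosphorylates deoxycytidine and activates cytarabine, a drug used in leukemia. It was at 12.03, 11.93, 11.92 and 11.84 in untreated cells, at 11.86, 12.06, 12.03, 12.04 and 11.95 at 8 h, and at 11.87, 11.88, 11.96, 11.94 and 11.94 at 24 h. The 3 groups overlapped, and the 95% interval of its difference ran from -0.07 to 0.18 at 8 h and from -0.14 to 0.11 at 24 h. DGUOK, a mitochondrial kinase for purine deoxynucleosides, differed by 0.08 at 8 h and by -0.13 at 24 h (95% interval -0.44 to 0.18). Its arrays split by day, with 8 h values of 10.19 and 10.15 on day 1 and of 9.60, 9.64 and 9.78 on the other days, and with the run as a block its change from 8 h to 24 h was -0.21 with a limma adjusted p of 0.0282. Within day 1 DGUOK passed as higher at 8 h (0.29, limma adjusted p = 0.0257), and within days 2 to 4 as lower at 24 h (-0.26, limma adjusted p = 0.0194).

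The nucleotide kinases divided further. NME1, which transfers phosphate to nucleoside diphosphates and is also known as a MYC target, was at 11.95, 12.11, 12.18 and 12.36 in untreated cells, at 11.57, 11.72, 11.11, 11.29 and 11.39 at 8 h, and at 9.82, 9.88, 9.25, 9.46 and 9.45 at 24 h. The groups did not overlap, and the day 1 arrays were the highest at 8 h and at 24 h. NME1 was 1.66-fold lower at 8 h (log2 difference -0.73, SE 0.14, limma adjusted p = 0.0012) and 5.97-fold lower at 24 h (log2 difference -2.58, SE 0.14, limma adjusted p = 3.6e-10), the 25th largest fall of all genes.

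CMPK1, which phosphorylates UMP and CMP, and GUK1, the GMP kinase, did not pass in any comparison. The 95% interval at 24 h was -0.10 to 0.17 for CMPK1 and -0.15 to 0.13 for GUK1.

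AK4, a mitochondrial adenylate kinase, was at 8.21, 8.18, 7.82 and 6.81 in untreated cells, at 5.81, 5.96, 6.06, 6.26 and 6.14 at 8 h, and at 7.89, 8.5, 5.84, 6.30 and 6.05 at 24 h. All 8 h arrays were below all untreated ones. At 24 h the 2 arrays of day 1 were back within the untreated range, and the 3 arrays of the other days stayed at the level of 8 h. AK4 was 3.27-fold lower at 8 h (log2 difference -1.71, SE 0.46, limma adjusted p = 0.0136), the 7th largest fall, and at 24 h its difference was -0.84 (95% interval -1.81 to 0.13, limma adjusted p = 0.173). Without 24 h replicate 2 the 24 h difference was -1.24 (limma adjusted p = 0.0149), within days 2 to 4 it was -1.25 and within day 1 it was 0.00042. The change from 8 h to 24 h was 2.31 on day 1 and -0.09 on days 2 to 4, and in a fit over all genes that was chosen after the values were seen, this difference between days passed (2.41, SE 0.34, limma adjusted p = 0.0362), as it did for 0.0836% of all genes. The difference of the steps of AK4, 2.58 (limma adjusted p = 0.0413), did not pass without untreated replicate 1, 2 or 3, any of the 8 h arrays or 24 h replicate 1, with values from 2.34 to 2.69 and adjusted p from 0.0614 to 0.0972. Within days 2 to 4 it was 1.07 (limma adjusted p = 0.131).

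**Figure D4:**
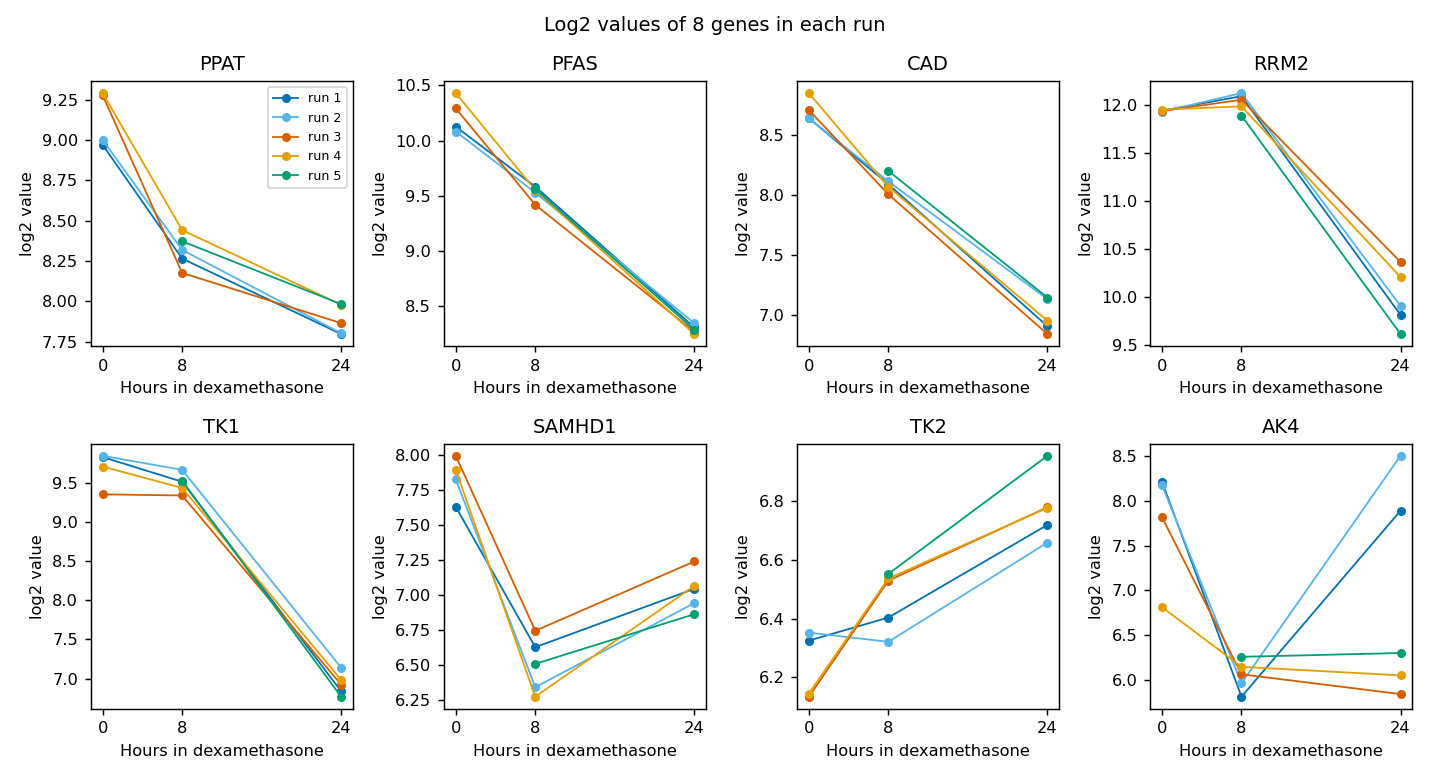
Lines join the log2 values of 8 genes at 0 h, 8 h and 24 h within each of the 5 runs, and run 5 has no untreated array. PPAT, PFAS and CAD fall in both steps in every run that has both, RRM2 and TK1 fall after 8 h, and SAMHD1 is lowest at 8 h. TK2 rises after 8 h in every run, and before 8 h mainly in runs 3 and 4. AK4 returns at 24 h in runs 1 and 2, which are those of day 1.

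Day also entered the size of the 8 h differences. In the same fit, chosen after the values were seen, the 8 h difference of day 1 was apart from that of the other days for 5.02% of all genes and for 5 of the 32 members. These were CTPS1 (0.65), DTYMK (0.54), HPRT1 (0.48) and NME1 (0.63), with higher values on day 1, and TK2 (-0.38). At 24 h this was so for 1.28% of all genes and for NME1 (0.70). The 3′ minus 5′ differences of ACTB and GAPDH split by the same days, and their part in these values was not tested. Within day 1, 14 members were lower at 8 h and 26 at 24 h, and within days 2 to 4, 18 and 28.

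Several probe sets of 1 gene did not always move alike. For DUT the difference at 24 h was -2.66 on 208955_at and -0.81 on 208956_x_at, which was the brightest, with an untreated mean of 13.31. For GART, 210005_at and 212378_at gave -1.41 and -1.38, and the dim 216990_at, at 2.64 in untreated cells, gave 0.01. For TYMS, 202589_at gave -1.49 and the dim 217684_at gave -0.62, so the mean over probe sets understates the brighter probe set. The same holds for GART, at -0.85 by the mean. It holds too for PAICS, where 201013_s_at and 201014_s_at gave -2.05 and -2.24. Its dim 214664_at, at 4.97 in untreated cells, gave -1.31. For DHODH, 217647_at gave -1.62 and 213631_x_at gave -0.31. Those of RRM1, RRM2, PRPS1, PPAT, ADSL and APRT each agreed in direction at 24 h, and so did the 3 of TK2, from 0.34 to 0.68.

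Other genes of nucleotide metabolism were less uniform. Beside the counts below, 11% of all genes were lower and 8.68% higher at 8 h, and 20.9% and 19.5% at 24 h. Of 15 further measured genes of nucleotide synthesis and pool cleaning, 5 had fallen and 2 had risen at 8 h, and 6 had fallen and 2 had risen at 24 h. The largest difference was in DCTPP1, which removes modified dCTP and was lower by 0.81 at 8 h and by 1.68 at 24 h. ADK, the adenosine kinase, differed by -0.56 and -1.27, NME4, a mitochondrial relative of NME1, by -0.80 and -1.38, and ITPA, which removes ITP, by -0.30 and -0.64 at 8 h and 24 h, and all passed.

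Of 17 genes of nucleotide breakdown, 5 had fallen and 1 had risen at 8 h, and 4 had fallen and 2 had risen at 24 h. ADA, adenosine deaminase, differed by -0.90 at 8 h and by -0.99 at 24 h, PNP, the purine nucleoside phosphorylase, by -0.50 and -1.07, and NT5M, a mitochondrial deoxynucleotidase, by -0.45 and -0.64. AMPD3, an AMP deaminase, rose, from 7.93 to 8.18 in untreated cells to 8.86 to 8.94 at 24 h, a log2 difference of 0.86 (limma adjusted p = 7.2e-08). Of 7 transporter genes 2 had fallen and 2 had risen at 24 h, and these shares, like that of the breakdown genes that had fallen, are near the 20.9% lower and 19.5% higher of all genes. Among the transporters the nucleoside carriers SLC29A1 and SLC29A2 differed by -0.52 and -0.76, and SLC29A3 and SLC25A36 by 0.30 and 0.22.

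Folate enzymes supply the carbon units of purine and thymidylate synthesis, and 4 of the 7 measured had fallen at 8 h and 5 at 24 h. MTHFD1, the cytosolic enzyme of 3 folate steps, was at 11.10, 11.08, 10.93 and 11.07 in untreated cells, at 10.73, 10.68, 10.38, 10.46 and 10.47 at 8 h, and at 8.53, 8.62, 8.54, 8.53 and 8.61 at 24 h. It differed by -0.50 at 8 h and by -2.48 at 24 h (SE 0.07, limma adjusted p = 2.8e-13). MTHFD2, the mitochondrial enzyme, differed by -1.12 and -1.88, SLC19A1, the reduced folate carrier through which methotrexate enters cells, by -0.48 and -0.73, and GGH, a hydrolase of folate polyglutamates, by -0.23 (limma adjusted p = 0.0771) and -1.13.

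DNA replication genes were lower at the same times as the members, and their part in these results was not tested. Over all genes, 11% were lower and 8.68% higher at 8 h, and 20.9% and 19.5% at 24 h. Of 33 DNA replication genes, 22 had fallen and 2 had risen at 8 h and 32 had fallen at 24 h, with median log2 differences of -0.45 and -2.09. Their mean per array was 9.58 to 9.78 in untreated cells, 9.26 to 9.37 at 8 h and 7.44 to 7.57 at 24 h, and GINS2 had the largest difference, -0.96 at 8 h and -4.35 at 24 h. Of 22 genes of G2 and mitosis, 3 had risen and 0 had fallen at 8 h, and 7 had fallen at 24 h, with median log2 differences of 0.16 and -0.10 and a mean per array of 9.71 to 10.06 in untreated cells, 9.76 to 10.10 at 8 h and 9.47 to 9.76 at 24 h. Among regulators known to act on genes of these pathways, MYC was at 12.22, 12.26, 11.92 and 12.02 in untreated cells, at 11.15, 11.08, 10.77, 10.99 and 11.00 at 8 h, and at 11.14, 11.12, 10.99, 11.32 and 11.17 at 24 h, and its change from 8 h to 24 h was 0.15 (limma adjusted p = 0.227). Of the 19 measured genes on the list of these regulators, 5 had fallen and 1 had risen at 8 h. At 24 h, 9 had fallen and 2 had risen, and at neither time did the share that had risen exceed that of all genes. E2F1 differed by -0.41 at 8 h and by -1.0 at 24 h. TFDP1, its partner, differed by -0.21 (limma adjusted p = 0.0843) and -1.09. RBL1, a pocket protein, differed by -0.33 (limma adjusted p = 0.078) and -2.32. E2F8 had a mean of 10.37 in untreated cells, 10.56 at 8 h (limma adjusted p = 0.47) and 8.47 at 24 h, where it passed as lower.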

How the data were processed

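RNA of RS4;11 cells was hybridized to 14 arrays. The sample labels name an Affymetrix protocol, while the methods of the paper name Agilent hgu133a2 arrays. RMA in the affy package was the authors' normalization, and 1 untreated array was excluded by them. The deposited table holds 1 log2 value per array for each of 22277 probe sets. No tool version or genome build for these values is given in the sources used here. Groups, runs and days were taken from the labels. For arrays there is no read depth, and their number limits the precision.

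Probe sets with exactly 1 gene in GEO's platform annotation were kept (19070; 1043 had several genes and 2164 are unnamed here) and averaged per gene. R 4.3.3 with limma 3.58.1 (lmFit, contrasts.fit, eBayes) was run on all genes and all 14 arrays, with no block and no variance filter. The Benjamini-Hochberg adjustment ran over 11964 genes, and intervals are at 95%. The calculation was tested on simulated data. Arrays of the same run, numbered in the labels, deviated together from their group means (r from 0.299 to 0.537 in 13 pairs), so the runs pair the samples, and the fit with the run as a block is given where it changes a call. Motif searches and figures used Python 3.11.15 and matplotlib 3.10.9.

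The members, the 16 gene lists and the tests were chosen with earlier results of these data known. Every measured member is named, and of each other list up to 4 genes with the smallest adjusted p at 24 h, of which a part is printed. MYC, VPREB1, PAX5, CD14, LCK and the genes in the closing observations lie outside this rule, with their values known when they were picked.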

Additional observations from a re-analysis of the deposited data

Results flagged for a closer look

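On 3 of the 96 groups of array values examined (each of the 32 genes at each time), 1 array stood apart from the others of its group. Chance alone flags about 1 in 20 such groups. GART on 8 h replicate 5 was at 6.151, where the nearest other array was at 5.985. PAICS on untreated replicate 4 was at 9.421, where the nearest other was at 9.185. DHODH on 8 h replicate 1 was at 5.658, where the nearest other was at 5.534. The first pair of arrays belongs to run 4. Without these arrays in turn, no call of GART, PAICS or DHODH changed at 8 h or 24 h.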

How the results depend on the processing

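The alternatives were a variance filter, a filter on dim probe sets, the brightest probe set per gene, a shift of every array to one median, the run as a fixed or random block, a trended and robust eBayes, array weights, an adjusted p below 0.01, only the groups compared, each day set alone and each array left out. The count of members lower was 13 to 18 at 8 h and 26 to 28 at 24 h over all of these. The count higher at 8 h, 1 (TK2), was 0 with arrays shifted to one median, with the replicate block by run, at an adjusted p below 0.01 and with only 2 groups fitted, 2 within day 1 (HPRT1 and DGUOK), and 0 to 1 without single arrays. The count of members with a positive difference of steps, 2, was 4 with the replicate block by run and with the run as a random block, 1 with a trended and robust eBayes and at an adjusted p below 0.01, and 1 to 3 without single arrays. The block of runs changed the calls of TK2 and IMPDH2 at 8 h, of DGUOK from 8 h to 24 h, and of CTPS1, PPAT and IMPDH1 for the difference of steps, all given in the report, and no other call of a member. At an adjusted p below 0.01 the number of all genes called at 8 h was 1520, against 2351 at 0.05. The difference of steps of PRPS2, -0.52, passed narrowly and had adjusted p up to 0.147 without single arrays. That of CAD, -0.49, had an adjusted p of 0.0571 without 8 h replicate 4. The cause was not tested for any of these.

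None of the values that passed changed sign under these alternatives. The following values did, and none of them had passed. With arrays shifted to one median, CMPK1 was at -0.00771 at 8 h, -0.0129 at 24 h and -0.00518 from 8 h to 24 h. With the replicate block by run, TYMS was at 0.0346 and CMPK1 at -0.000287 at 8 h and GUK1 at 0.0178 at 24 h, and with the run as a random block TYMS was at 0.0102 and GUK1 at 0.00259 at these times. With array weights, HPRT1 was at -0.0329 and DGUOK at -0.0523 at 8 h. Within day 1, DUT was at 0.00555, DTYMK at 0.202, DCK at -0.0189 and GUK1 at 0.0594 at 8 h, and DGUOK at 0.107, GUK1 at 0.146 and AK4 at 0.000418 at 24 h. Within days 2 to 4, TYMS was at 0.0617, HPRT1 at -0.168, DGUOK at -0.0418 and CMPK1 at -0.0350 at 8 h, DCK at 0.0656 and CMPK1 at -0.00885 at 24 h, and AK4 at -0.0915 from 8 h to 24 h. Without single arrays the 8 h values ran from -0.104 to 0.0514 for TYMS, -0.0239 to 0.0463 for CMPK1, -0.0177 to 0.0751 for HPRT1 and -0.00293 to 0.143 for DGUOK. Those at 24 h ran from -0.00283 to 0.0673 for CMPK1, -0.0429 to 0.0198 for DCK and -0.0552 to 0.0240 for GUK1, and those from 8 h to 24 h from -0.00545 to 0.0561 for CMPK1 and -0.00914 to 0.0633 for GUK1.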

Other observations

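The change from 8 h to 24 h was apart between day 1 and days 2 to 4 for 10 of the 11964 genes in the fit that was chosen after the values were seen, and AK4 was among them. Of the others, 3 encode enzymes of sugar breakdown. LDHA, lactate dehydrogenase, changed by 0.28 on day 1 and by -0.46 on days 2 to 4 (difference 0.73, SE 0.11, limma adjusted p = 0.0367). TPI1, triose phosphate isomerase, changed by 0.49 and by -0.43 (difference 0.92, SE 0.15, limma adjusted p = 0.0456). PGM1, phosphoglucomutase, changed by 0.64 and by -0.26 (difference 0.90, SE 0.15, limma adjusted p = 0.0456). MIF, a secreted cytokine, changed by -0.22 and by -1.02 (difference 0.81, SE 0.11, limma adjusted p = 0.0362). The remaining genes were KCNMB2, H1-2, DALRD3, ATRNL1 and PTX3. Day 1 holds 2 arrays at each time, and what differed between the days was not tested.

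AMPD2, an AMP deaminase that lies outside the genes named by rule, fell by 0.68 at 8 h (limma adjusted p = 0.00057) and was back at 24 h, with a difference from untreated cells of 0.05 (limma adjusted p = 0.818). The difference of its steps was 1.40 (SE 0.20, limma adjusted p = 0.00021). MXI1, an antagonist of MYC, fell by 1.33 at 8 h (limma adjusted p = 0.00034), and the difference of its steps was 2.61 (limma adjusted p = 0.00019). Its mean was 8.84 in untreated cells and 8.79 at 24 h. It was at 9.14, 9.25, 8.77 and 8.18 in untreated cells and at 7.07, 7.11, 7.87, 8.05 and 7.42 at 8 h. The day 1 arrays, which come first here, were the highest in untreated cells and the lowest at 8 h.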
